A study of Mus musculus with 12 samples.

Results

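The carbonic anhydrase genes Car1, Car2, Car3, Car4, Car5a, Car5b, Car8, Car13 and Car14 were examined in the white (WAT) and brown (BAT) fat depots, liver and quadriceps muscle of male C57BL/6J mice. These 9 members were taken by gene symbol out of 22276 genes in the expression table, and all 9 had a value in all 12 libraries. The members were chosen with their levels in these libraries in view. Car3 was singled out because it headed the WAT library of chow-fed mice, at 13816 FPKM, with Fabp4 just behind it at 12720. FPKM is the number of fragments per kilobase of transcript, scaled to the fragments mapped in the library, so it allows levels of different genes to be compared per length. Levels of the members across organs are therefore given as a description.

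The mice were 17 wk old and belonged to 3 groups. NCD-veh mice ate a normal chow diet and received vehicle. HFD-veh mice ate a high-fat diet (HFD), in which 60% of the calories came from fat, and received vehicle. HFD-ncls mice ate the same diet and received narciclasine (ncls), an alkaloid, at 1 mg/kg. The HFD started at 8 wk of age. From 10 wk of age the mice were gavaged with ncls or vehicle once a week over 7 wk. Each organ and group was sequenced as 1 library, and the number of mice behind a library is not given in the sources used here. Variation among mice could therefore not be measured, and all differences below are descriptions of single libraries without a test. Where 3 values of a gene are given for an organ, they stand in the order NCD-veh, HFD-veh, HFD-ncls. A gene was counted as differing between 2 libraries of an organ when log2(FPKM + 0.1) differed by more than 1 (2-fold) and at least 1 of the libraries held 1 FPKM or more.

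Carbonic anhydrases interconvert carbon dioxide and bicarbonate, which links respiration, pH control and those biosynthetic enzymes that use bicarbonate as a substrate. Cytosolic, mitochondrial and cell surface isoforms are encoded by separate genes and are used in different cell types. In metabolic organs the family is best known for the very abundant Car3 protein of adipocytes, liver and slow muscle fibers, and for the mitochondrial isoforms that supply bicarbonate to pyruvate carboxylase and to carbamoyl phosphate synthetase.

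The organ labels were checked against marker genes. Adipoq, the fat cell hormone adiponectin, was at 1600 to 2849 FPKM in WAT. Ucp1, the uncoupling protein of brown fat, was at 740 to 770 FPKM in BAT. Acta1, skeletal muscle actin, was at 22749 to 24220 FPKM in muscle, and the liver libraries were headed by Apoa2 at 15430 to 16882 FPKM. Depth, estimated from the smallest steps of the FPKM values, was about 18.6 to 26.9 M fragments. Genes typical of another organ were detected in some libraries, and where their RNA came from was not tested. In HFD-veh muscle, 11 hepatocyte genes stood at a median of 0.553% of their level in liver of the same group, and in HFD-ncls WAT at 0.227%. Fast fiber genes stood at medians of 1.96%, 0.78% and 0.116% of the muscle level in the 3 BAT libraries, and at 0.0633% in HFD-veh liver. With 1 library per organ and group, no value could be given without these libraries. All 6 genes of an epididymis list were listed at 0 in the 3 WAT libraries.

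Car3 had the highest FPKM of the 9 genes in all 12 libraries, from 11.7 times the next member in HFD-veh BAT to 122 times in NCD-veh WAT. Below Car3, each organ had its own order. Car5b was second in the 3 WAT libraries, Car4 in the 3 BAT libraries, Car5a in the 3 liver libraries and Car14 in the 3 muscle libraries. Without Car3, these genes made up 62.8% to 80.9% of the remaining carbonic anhydrase FPKM in WAT, 55.9% to 69.0% in BAT, 48.8% to 63.9% in liver and 51.9% to 69.1% in muscle. As a stricter description, a gene was counted for an organ when its lowest value there was over 2 times its highest value in the other 9 libraries. Car3 (3.36 times) and Car5b (4.74 times) met this in WAT, where 19.0% of 13648 genes did. Car1 (2.22 times), Car8 (10.8 times) and Car5a (92.4 times) met it in liver, where 7.69% of genes did. No member met it in BAT (1.28% of genes) or in muscle (5.30% of genes).

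**Figure D1:**
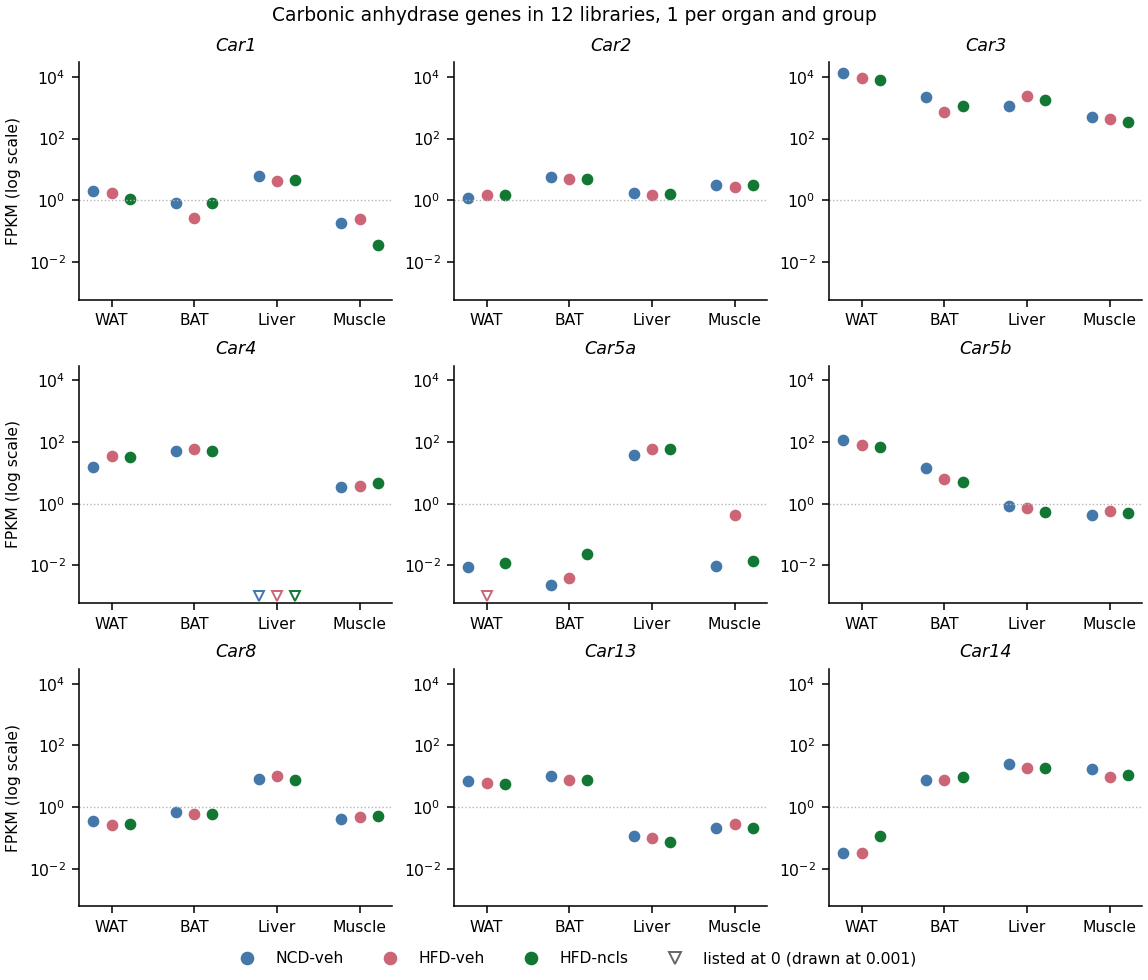
FPKM of the 9 carbonic anhydrase genes on a log scale, with 1 point per library, organs on the x axis and groups by color; the dotted line marks 1 FPKM and open triangles mark values listed at 0. Car3 lies above 300 FPKM in all 12 libraries, Car5a is above 1 FPKM only in the 3 liver libraries, and Car4 is listed at 0 in the 3 liver libraries.

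Car3 encodes a cytosolic isoform with low carbon dioxide hydration activity. Its FPKM was 13816, 9124 and 8102 in WAT, 2282, 715 and 1172 in BAT, 1107, 2415 and 1783 in liver, and 518, 416 and 334 in muscle. The WAT values were all above those of the other organs, BAT and liver overlapped, and the muscle values were the lowest. Car3 ranked 1, 2 and 2 among all genes in the 3 WAT libraries, where it made up 3.93%, 2.60% and 2.31% of the summed FPKM. In BAT its ranks were 6, 47 and 22. In liver, where apolipoprotein genes led, the ranks were 68, 34 and 41. In muscle they were 63, 70 and 91.

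Car3 lies on chromosome 3 in a row with 3 other members (mm9). Car13 occupies chr3:14641727-14663002 on the plus strand, Car1 chr3:14766217-14778459 on the minus strand, Car3 chr3:14863538-14872351 on the plus strand and Car2 chr3:14886426-14900769 on the plus strand. The gap between Car3 and Car2 is 14.1 kb. The levels of these neighbors differed widely within each library. Car3 was 11639 times Car2 in NCD-veh WAT and 103 times Car2 in HFD-ncls muscle, the highest and the lowest of the 12 ratios.

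**Figure D2:**
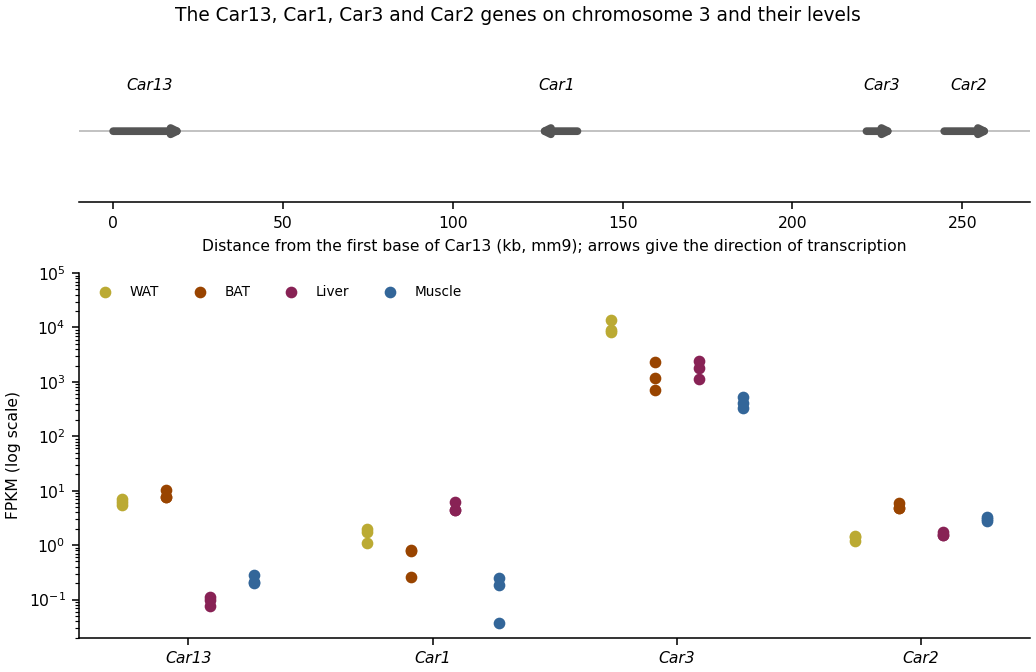
Top, positions of Car13, Car1, Car3 and Car2 as distance in kb from the first base of Car13 (mm9), with arrows for the direction of transcription; bottom, FPKM of each gene on a log scale with 1 point per library, colored by organ. Car3 and Car2 are 14.1 kb apart, and Car3 is at least 103 times Car2 in each library.

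Car2 encodes the fast cytosolic enzyme found in many tissues. Its FPKM was 5.88, 4.78 and 4.83 in BAT, 3.01, 2.78 and 3.23 in muscle, 1.75, 1.52 and 1.55 in liver, and 1.19, 1.45 and 1.44 in WAT. BAT was thus above muscle, and muscle above liver and WAT, in all groups. Car13, another cytosolic isoform, was at 7.17, 6.08 and 5.55 FPKM in WAT and at 10.5, 7.55 and 7.68 in BAT. It stayed between 0.0747 and 0.284 FPKM in liver and muscle, so that both fat depots lay above both other organs.

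Car1, the most abundant carbonic anhydrase protein of red blood cells, was at 6.14, 4.37 and 4.43 FPKM in liver and at 1.97, 1.75 and 1.11 in WAT. In BAT it was at 0.822, 0.261 and 0.786 FPKM, and in muscle at 0.188, 0.250 and 0.0363. The muscle values stood on only about 5.43, 7.95 and 1.10 fragments. Hbb-b1, an adult globin gene of red cells, did not follow the same order of organs, with 260, 114 and 145 FPKM in liver and 569, 483 and 474 in WAT. Car1 was therefore 2.36%, 3.83% and 3.05% of Hbb-b1 in liver and 0.345%, 0.362% and 0.234% in WAT. Of 10 red cell genes, 6 had values and only 2 passed the expression filter. The other of these 2, Alas2, did follow the order of organs of Car1. Alas2 was at 53.07, 62.88 and 74.3 FPKM in liver and at 15.64, 12.75 and 13.61 in WAT. In BAT it was at 7.227, 5.664 and 3.856 FPKM, and in muscle at 1.243, 2.085 and 1.343. Within liver, Alas2 was highest in HFD-ncls and Car1 in NCD-veh. The part of red cells in the Car1 values was not tested.

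Car8 encodes a carbonic anhydrase-related protein without catalytic activity that binds the inositol trisphosphate receptor. It lies at chr4:8070514-8166188 on the minus strand (mm9). Its FPKM was 8.08, 10.2 and 7.52 in liver, and between 0.261 and 0.694 in the other 9 libraries.

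Car5a and Car5b encode the mitochondrial isoforms, and their use by organ was opposite. Car5a was at 39.0, 60.5 and 58.1 FPKM in liver. Outside liver it did not exceed 0.0241 FPKM except in HFD-veh muscle, where it was at 0.422 FPKM, or about 14.2 fragments. This was 0.698% of its HFD-veh liver level, within the 0.445% to 0.759% that the hepatocyte genes showed in the same library. Car5b was at 113, 76.9 and 68.8 FPKM in WAT and at 14.5, 6.32 and 5.04 in BAT. It did not exceed 0.841 FPKM in liver or 0.597 FPKM in muscle. The ratio of Car5a to Car5b in the 3 liver libraries was 46.4, 83.6 and 111.

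The sequences before the start sites of this pair are shown because its members were highest in different organs. Car5a lies at chr8:124440026-124468804 and Car5b at chrX:160414754-160465929, both on the minus strand (mm9). The 250 bases upstream of each start are from RefSeq (GRCm38.p6, minus strand), chr8:121944913-121945162 for Car5a and chrX:164028011-164028260 for Car5b. Capitals mark CCAAT and GGGCGG.
Car5a: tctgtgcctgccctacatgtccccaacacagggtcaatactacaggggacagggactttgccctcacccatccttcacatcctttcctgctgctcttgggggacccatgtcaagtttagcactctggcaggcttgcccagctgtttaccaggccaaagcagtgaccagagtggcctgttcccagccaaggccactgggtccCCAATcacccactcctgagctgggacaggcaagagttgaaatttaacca
Car5b: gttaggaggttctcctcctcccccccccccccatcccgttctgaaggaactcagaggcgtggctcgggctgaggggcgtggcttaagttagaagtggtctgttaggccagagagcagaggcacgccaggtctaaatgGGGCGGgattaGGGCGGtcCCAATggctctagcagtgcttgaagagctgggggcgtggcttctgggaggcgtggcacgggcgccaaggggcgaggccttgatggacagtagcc
The Car5a stretch held no CG dinucleotide and the Car5b stretch held 12, against a median of 6 over 32851 promoters of 27025 genes. CCAAT began 49 bases before the start in Car5a and 94 bases before it in Car5b, and 33.8% of all promoters held this motif on either strand. GGGCGG began 113 and 102 bases before the start in Car5b and was in 32.7% of promoters. TATAAA, held by 12.4% of promoters, was searched on both strands too and was in neither stretch. Promoters were held for 4 members, also Car4 (11 CG dinucleotides) and Car14 (10), in which none of the 3 motifs was found.

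Car4 encodes an enzyme anchored on the outer cell surface, known from the endothelium of capillaries. It lies at chr11:84771288-84779546 on the plus strand (mm9). Its FPKM was 50.7, 60.9 and 52.5 in BAT, 15.9, 33.9 and 32.3 in WAT, and 3.56, 3.74 and 4.77 in muscle. It was listed at 0 in the 3 liver libraries, although 8 endothelial genes summed to 24.9 to 29.4 FPKM there. Relative to this endothelial sum, Car4 was 17.7%, 16.4% and 15.8% in BAT, 6.08%, 8.60% and 7.32% in WAT and 5.74%, 5.31% and 7.11% in muscle. BAT thus stood apart on this scale too, while WAT and muscle overlapped.

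**Figure D3:**
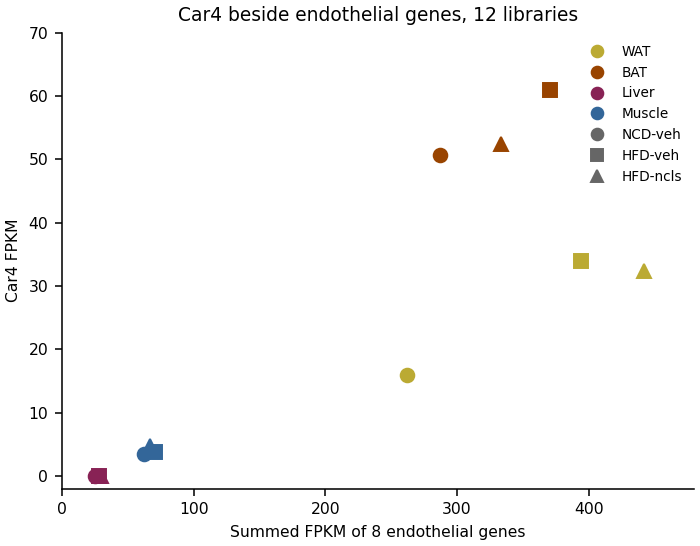
Car4 FPKM against the summed FPKM of 8 endothelial genes (Pecam1, Cdh5, Kdr, Emcn, Tie1, Tek, Gpihbp1 and Esam), with 1 point per library, organs by color and groups by shape. The 3 BAT libraries lie at 50.7 to 60.9 FPKM of Car4, above HFD-veh and HFD-ncls WAT, which have higher endothelial sums, and the liver libraries lie at 0.

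Car14, a transmembrane isoform, lies at chr3:95701691-95708614 on the minus strand (mm9). It was at 24.1, 19.0 and 18.8 FPKM in liver, at 17.5, 9.24 and 10.98 in muscle and at 7.59, 7.82 and 9.68 in BAT. In WAT it was at 0.0323, 0.0334 and 0.113 FPKM, so that the order of the fat depots was opposite to that of Car3 and Car5b. Car14 shares 445 of its 2543 exon bases with Aph1a on the other strand, which was at 7.55 to 26.9 FPKM over the 12 libraries. Likewise, 314 of the 1339 exon bases of Car5a overlap the noncoding BC048644, which did not exceed 2.12 FPKM. Whether reads were counted by strand is not given in the sources used here, so the assignment of such reads is uncertain.

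The effect of HFD was examined by comparing HFD-veh with NCD-veh in each organ. Car3 differed in both directions: it was 3.19-fold lower in HFD-veh than in NCD-veh BAT (2282 and 715 FPKM, log2 change -1.67) and 2.18-fold higher in HFD-veh than in NCD-veh liver (1107 and 2415 FPKM, log2 change 1.13). Car5b was 2.28-fold lower in HFD-veh BAT (log2 change -1.19), and Car4 was higher in HFD-veh WAT (log2 change 1.09). Counted by organ, 1 of 6 members tested in WAT was over 2-fold higher, where 5.24% of all 12208 genes tested were, and none was over 2-fold lower (3.87%). In BAT, 2 of 6 were over 2-fold lower (2.01% of 10444 genes) and none was higher (2.28%). In liver, 1 of 6 was over 2-fold higher (2.86% of 10016 genes) and none was lower (2.27%). In muscle, 0 of 4 passed 2-fold (3.14% of 9587 genes higher and 0.970% lower). Since the members were chosen with these libraries in view, nothing is read from these counts. In bulk tissue, fewer cells of a type and less RNA per cell cannot be told apart.

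Car3 and Car5b were also lower in HFD-veh than in NCD-veh WAT, without reaching 2-fold, with log2 changes of -0.60 and -0.55. Of all genes tested in WAT, 9.6% had a lower log2 change than Car3. In muscle the log2 change of Car3 was -0.31 and that of Car14 was -0.91, the next largest after those past 2-fold. Among the liver members, Car5a (0.63) and Car8 (0.33) were higher and Car1 (-0.48), Car14 (-0.34) and Car2 (-0.19) lower in HFD-veh. The median log2 change of the members tested was -0.20 in WAT, -0.38 in BAT, 0.07 in liver and -0.21 in muscle. The medians of all genes tested were between -0.04 and 0.04.

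The effect of ncls was examined by comparing HFD-ncls with HFD-veh, which uses the same HFD-veh libraries as the diet comparison. None of the members tested passed 2-fold in any organ. Over all genes, 1.49% were over 2-fold higher and 0.214% lower in WAT, 0.261% and 1.70% in BAT, 1.00% and 1.31% in liver, and 1.27% and 2.53% in muscle. The member with the largest log2 change was Car3 in BAT, at 0.71 (715 FPKM without and 1172 with ncls, a 1.64-fold difference), above 99.2% of the genes tested there. The HFD-ncls value remained below the 2282 FPKM of NCD-veh BAT. In liver the Car3 level with ncls, 1783 FPKM, lay between the 1107 of NCD-veh and the 2415 of HFD-veh (log2 change -0.44 against the latter). In WAT and muscle the HFD-ncls value of Car3 was the lowest of the 3 groups, with log2 changes of -0.17 and -0.32 against HFD-veh.

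Among the other members, Car1 in WAT (log2 change -0.61) and Car8 in liver (-0.43) were lower with ncls. Of all genes tested in WAT, 0.7% had a lower log2 change than Car1. It was low there, at about 42.1 fragments in HFD-veh and 24.4 in HFD-ncls. Car4 in muscle (0.34), Car14 in BAT (0.30) and Car14 in muscle (0.25) were higher. Car5b was lower in HFD-ncls in both fat depots, with log2 changes of -0.16 in WAT and -0.32 in BAT. Car5a in liver differed by only -0.06. The median log2 change of the members was -0.15 in WAT, 0.02 in BAT, -0.04 in liver and 0.23 in muscle, beside 0.04, -0.02, 0.02 and 0.04 over all genes tested.

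**Figure D4:**
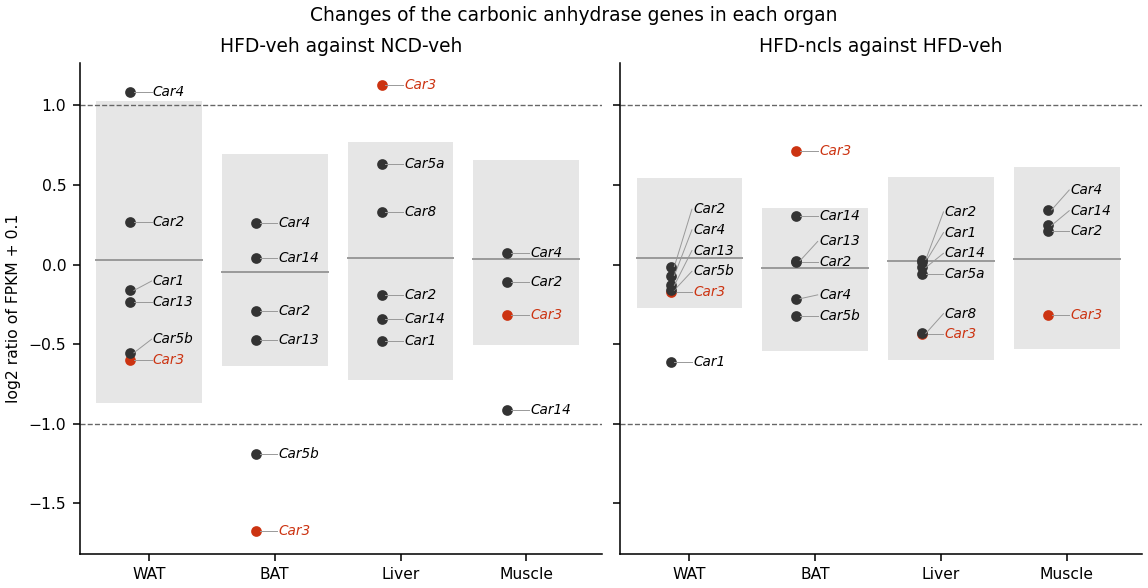
Log2 ratio of FPKM + 0.1 for each carbonic anhydrase gene tested, by organ, for HFD-veh against NCD-veh (left) and HFD-ncls against HFD-veh (right); dashed lines mark 2-fold, gray boxes span the 5th to 95th percentile of all genes tested and gray lines their median. Car3 (red) lies below the box in BAT and above it in liver on the left. On the right it lies above the box in BAT, and no gene shown passes 2-fold. Also outside the boxes are Car4 in WAT (above), Car5b in BAT and Car14 in muscle (below) on the left. Car1 in WAT lies below the box on the right. Car3 and Car8 coincide in liver on the right.

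Marker genes of the cell types in each organ are given beside Car3. In WAT, the median log2 change of 8 adipocyte genes with HFD was -0.28, with Lep over 2-fold higher and Cfd over 2-fold lower. With ncls the median was -0.10 and none passed 2-fold. Macrophage genes moved with the diet in WAT, with 5 of 8 over 2-fold higher and a median of 1.43. Their part in the lower Car3 level was not tested. Liver RNA at the hepatocyte share of HFD-ncls WAT would bring 4.05 FPKM of Car3, beside 8102 measured.

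In BAT, where Car3 was at 2282, 715 and 1172 FPKM, the adipocyte genes had medians of -0.26 with HFD (Lep over 2-fold higher, Cfd and Retn lower) and 0.01 with ncls (Cfd higher). The 5 brown adipocyte genes had medians of -0.003 and -0.06, with 1 over 2-fold lower each time. Fast fiber genes differed more, with 9 of 12 over 2-fold lower in HFD-veh than in NCD-veh and 11 of 12 lower with ncls. Macrophage genes had a median of 0.62 with HFD, with 5 of 7 above 0 and 2 of 7 over 2-fold higher. With ncls their median was -0.72, with 1 of 7 above 0 and 3 of 7 over 2-fold lower. The medians were opposite in sign to Car3 both times, but Cd14 (-0.62 and 0.54) had the signs of Car3. Muscle RNA at the median share of the fast fiber genes would bring 10.1, 3.25 and 0.388 FPKM of Car3 to the 3 BAT libraries. The 8 adipocyte genes, most of which brown adipocytes express too, stood in BAT at medians of 17.8%, 27.7% and 27.4% of their WAT level, from 0.199%, 0.307% and 0.200% for Lep up to 70.5%, 69.5% and 113%. Car3 itself stood at 16.5%, 7.83% and 14.5%, within this range, which is too wide to place it. At the share of Lep, the lowest of the 8, WAT would bring 27.5, 28.0 and 16.2 FPKM of Car3 to the 3 BAT libraries. The part of white adipocytes, muscle and macrophages in the Car3 values of BAT was not tested.

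In liver, Adipoq, Lep and Retn were listed at 0 in all 3 libraries while Car3 was at 1107 FPKM or more. Of the 8 adipocyte genes, 4 were tested with HFD, and 2 of these were over 2-fold higher in HFD-veh than in NCD-veh. They were Cfd, complement factor D (0.163, 10.2 and 5.71 FPKM), and Cidec, a lipid droplet protein (1.75, 5.88 and 2.43 FPKM). With ncls, 1 of the 4 was over 2-fold lower. The list summed to 11.99, 30.6 and 24.3 FPKM, so that it was lowest in NCD-veh and highest in HFD-veh liver, as Car3 was. Within it, Fabp4 was highest in HFD-ncls (4.29, 6.91 and 8.59 FPKM). The 8 genes stood at medians of 0.000998%, 0.0302% and 0.0383% of their WAT level, and at most at 0.889%, 1.55% and 1.46%. Car3 in liver stood at 8.01%, 26.5% and 22% of its WAT level. The part of adipocytes in the liver Car3 values was not tested. Hepatocyte genes had medians of -0.28 with HFD (1 of 11 over 2-fold lower) and 0.09 with ncls (none past 2-fold). A list of male-biased liver genes, whose levels depend on growth hormone, had 0 of 6 past 2-fold in either comparison, with medians of -0.09 and 0.16. All 11 fast fiber genes tested were over 2-fold higher in HFD-veh than in NCD-veh liver, and muscle RNA at their median share would bring 0.264 FPKM of Car3, beside 2415 measured.

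In muscle, Car3 is known as an isoform of slow fibers. The 6 slow fiber genes that the study named were over 2-fold lower in HFD-veh than in NCD-veh (6 of 6, median log2 change -3.68) and over 2-fold higher with ncls (6 of 6, median 3.77). This list was chosen on these samples and is not independent evidence of its direction. Car3, at 518, 416 and 334 FPKM, was also lower with HFD (log2 change -0.31) but, unlike the list, was lower again with ncls (-0.32). A list of 6 other slow fiber genes had medians of -0.62 with HFD (none past 2-fold) and 0.69 with ncls (1 higher), and 11 fast fiber genes had medians of 0.01 and -0.04 (none past 2-fold). Adipocyte genes in muscle stood at medians of 0.498%, 1.63% and 0.855% of their WAT level, and 4 of 8 were over 2-fold higher and 1 lower in HFD-veh than in NCD-veh (median log2 change 0.97). With ncls, 2 of 8 were over 2-fold lower and none was higher (median -0.56). The single genes ranged from 0.044% to 1.8%, from 0.42% to 5.1% and from 0.15% to 5.8% in the 3 muscle libraries. Car3 itself stood at 3.75%, 4.56% and 4.13% of its WAT level. This was above the range in NCD-veh and within it in HFD-veh and HFD-ncls, where the range is too wide to place Car3. At the median shares, WAT would bring 68.8, 148 and 69.2 FPKM of Car3 to the 3 muscle libraries. The part of adipocytes in the muscle Car3 values was not tested. Liver RNA at the hepatocyte share of HFD-veh muscle would bring 13.4 FPKM.

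**Figure D5:**
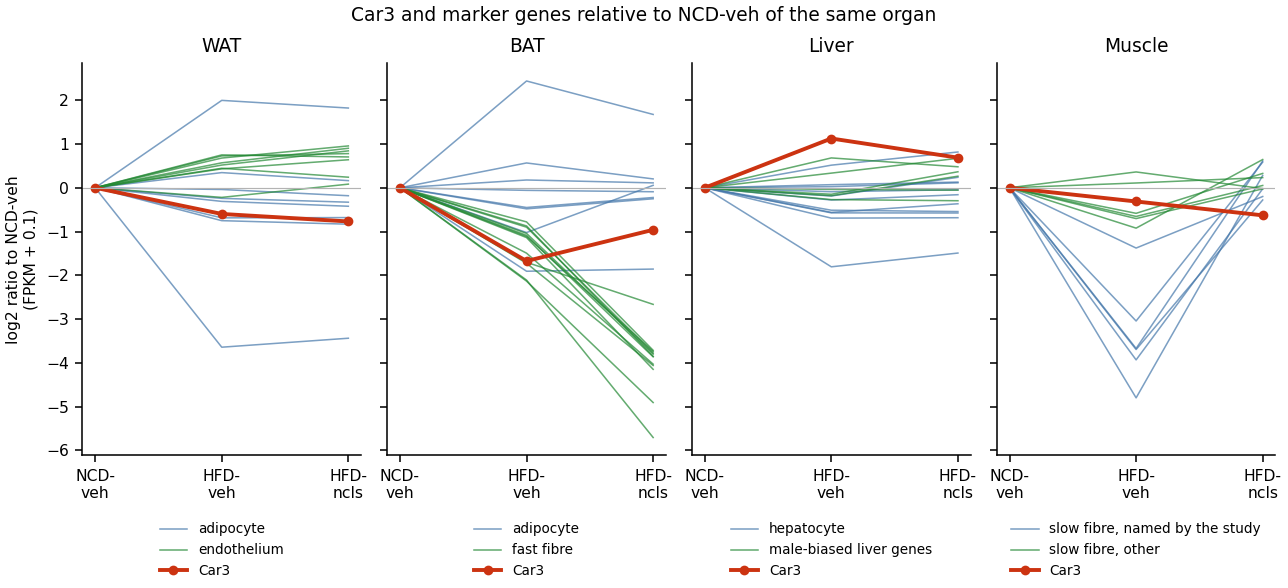
Log2 ratio of FPKM + 0.1 to the NCD-veh library of the same organ, for Car3 (red) and for the genes of 2 marker lists per organ (blue and green lines, 1 line per gene reaching 1 FPKM). Car3 lies at -1.67 in HFD-veh BAT and lies at 1.13 in HFD-veh liver; in muscle the slow fiber genes named by the study drop in HFD-veh and return in HFD-ncls, whereas Car3 does not return.

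Car4 was the member over 2-fold higher in HFD-veh WAT, and endothelial genes were higher there as well. Of the 8 endothelial genes, 7 were above 0 on the log2 scale and none passed 2-fold, with a median of 0.55 beside 1.09 for Car4. With ncls their median in WAT was 0.24 and that of Car4 was -0.07. In muscle the median of the endothelial genes was 0.18 with HFD and -0.02 with ncls, and Car4 was at 0.07 and 0.34. In BAT it was 0.32 and -0.09, beside 0.26 and -0.21 for Car4. The part of the endothelial cell content in the Car4 values was not tested.

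The remaining 7 carbonic anhydrase genes of the table (Car6, Car7, Car9, Car10, Car11, Car12 and Car15) were low, with 6.82 FPKM as the highest value. Of these, Car11, which encodes a protein without catalytic activity, was the only one to pass 2-fold. It was at 1.81, 0.583 and 1.84 FPKM in WAT (log2 changes -1.48 and 1.51), and 2 of the 7 genes were tested there. These Car11 values stood on only about 58.5, 18.9 and 54.4 fragments. Car7, a cytosolic isoform, was at 2.10, 4.14 and 4.07 FPKM in BAT and missed 2-fold at a log2 change of 0.95 with HFD.

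Of 11 bicarbonate and acid transporters, 1 of 8 tested was over 2-fold lower in HFD-veh than in NCD-veh WAT. This was Slc4a4, the sodium bicarbonate cotransporter, at 6.05 and 2.82 FPKM. In liver, Slc16a1, the lactate transporter, was over 2-fold lower with HFD (19.5 and 6.01 FPKM, log2 change -1.68), and Slc4a4 with ncls (7.11 and 3.50 FPKM). None of the 6 transporters tested in BAT or in muscle passed 2-fold in either comparison.

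Of 9 enzymes that use bicarbonate, the acetyl-CoA carboxylases of fatty acid synthesis and its control were those past 2-fold outside muscle. Acaca was at 77.8 and 33.5 FPKM in NCD-veh and HFD-veh WAT (log2 change -1.22) and at 4 and 10.99 FPKM in NCD-veh and HFD-veh liver (1.44). In HFD-fed BAT it was at 49.4 FPKM without and 20.2 with ncls (-1.29). Acacb was at 3.02 and 11.6 FPKM in NCD-veh and HFD-veh liver (1.91). In muscle the only gene past 2-fold was Cps1, the carbamoyl phosphate synthetase of the liver urea cycle, with 1.56 FPKM in HFD-veh against a listed 0 in both other groups. This was the muscle library with hepatocyte genes, and Cps1 was at 470 FPKM in HFD-veh liver. Where the Cps1 RNA in muscle came from was not tested.

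The genes whose pattern over the 12 libraries was most like that of Car3, by Pearson r of log2(FPKM + 0.1) among 13647 genes, were Pdxdc1, Scfd1, Mrpl49, Tmem67 and Mkrn1, each with r of 0.98. The libraries fall into 4 organs, so r mostly reflects the order of organs. Their own range was far smaller than that of Car3, for example 9.31 to 48.0 FPKM for Pdxdc1 and 8.33 to 20.9 FPKM for Mrpl49. Of the 5 genes, 3 were also among the first 5 by Spearman's rho. Among the members, Car5b had the highest r with Car3 (0.84) and Car14 the lowest (-0.83).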

How the data were processed

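RNA was sequenced by the authors as 12 libraries, 1 per organ and group, and groups were taken from the sample labels. TopHat 2.0.11 (mm9) and Cufflinks with RefSeq genes were run by the authors, who deposited 1 FPKM per gene symbol and library. The deposited FPKM are not counts and were used as they are, so no count test was run. For 86 genes a value was missing in 1 or more libraries.

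The members and gene lists were chosen with earlier results of these data known. Besides the members, the genes named were other carbonic anhydrase, transporter and bicarbonate-using genes past 2-fold, the 5 genes most like Car3, the genes heading the WAT libraries and markers that move with a member. Computations used Python 3.11.15, numpy 2.4.6, pandas 2.3.3 and matplotlib 3.10.9. Ratios were taken on log2(FPKM + 0.1), which understates changes of low genes, for genes with at least 1 FPKM in 1 of the libraries compared. Percentiles of a change are over those genes. The share of another organ's RNA is the median ratio of its marker genes to the same group's library of that organ. Depth was the most frequent value of fragments implied by FPKM of 0.001 to 0.05 in genes with 1 transcript (GENCODE vM1), it is approximate, and no interval was based on it. The ratio and depth steps were tested on simulated data. Alternatives changed the pseudocount, the filter, the scaling, the organ threshold and the correlation. Positions are those of GENCODE vM1 (mm9), and promoters those of RefSeq (GRCm38.p6).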

Additional observations from a re-analysis of the deposited data

Results flagged for a closer look

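Car3 was higher in HFD-veh than in NCD-veh liver and lower in HFD-veh than in NCD-veh BAT, and the log2 changes of 1.13 and -1.67 differed by 2.80. With 1 library in each organ and group, this difference between organs was not tested.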

How the results depend on the processing

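The 44 log2 changes of members were recomputed with pseudocounts of 1 and 0.01, a minimum of 5 FPKM, no minimum, rescaling by the median ratio and conversion to TPM (each library scaled to the same sum), and all 252 values kept their side of 2-fold. The sign was kept by 249 and turned in 3, all within 0.04 of 0 (Car1 in liver with ncls under the median ratio and TPM, and Car2 there under TPM). Conversion to TPM moved these changes within an organ by at most 0.104 (liver, HFD-veh against NCD-veh). The summed FPKM differed more between organs, from 254403 in HFD-veh BAT to 516221 in NCD-veh liver. Levels compared between organs therefore depend more on the scaling. Without a filter on FPKM, the count over 2-fold became 3 lower in HFD-veh BAT (Car1 added), 1 higher in HFD-veh muscle (Car5a), 1 higher in HFD-ncls BAT (Car1) and 2 lower in HFD-ncls muscle (Car1 and Car5a), all at low levels that only then were tested. With TPM, 1 member (Car2) met the 2-fold organ rule in BAT, and with 5-fold, 0 members met it in WAT. Car1 no longer met the organ rule in liver with TPM or with 5-fold. Without the 10 highest genes, Car3 made up 4.49% of the summed FPKM in NCD-veh WAT, beside 3.93%. With a pseudocount of 1, 3 of the 5 genes most like Car3 remained among the first 5. No paired analysis was possible because each organ and group has 1 library and no test was run. Variation among mice could not be measured, and 1 fragment of Car4 in liver would be at most 0.0356 FPKM.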
